A study of Mus musculus with 18 samples.

Results

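A set of 10 macrophage genes was followed across 18 bulk RNA sequencing libraries of mouse basophil cultures: Mrc1, Dab2, Fn1, Lpl, Mertk, Mmp14, Apoe, C1qa, C1qb and C1qc. They were chosen by gene symbol, as genes noted for higher levels in libraries labelled TTP-KO than in WT libraries, and are 10 of the 56413 genes in the count table. All 10 passed the filter on low counts, as did 14076 genes in all. The differences between genotypes chose the genes, so they are given for these 10 as a description, with no test. The cultures were grown from bone marrow of TTP-KO or wild-type (WT) mice with 0.3 ng/mL interleukin-3 over 7 days. TTP is tristetraprolin, an RNA-binding protein that promotes messenger RNA decay and is encoded by Zfp36. On day 6 all cultures received IgE against the hapten TNP at 1 µg/mL, and on day 7 cells carrying CD49b were enriched on magnetic beads. Samples of 50000 cells then received TNP-coupled ovalbumin (TNP-OVA), which links the bound IgE, or control ovalbumin (OVA) without the hapten, both at 10 ng/mL. The 6 groups of 3 libraries were TTP-KO and WT after control OVA for 2 h, after TNP-OVA for 2 h and after TNP-OVA for 4 h.

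Macrophages take up dying cells, lipoproteins and soluble ligands through surface receptors, and secrete proteins that tag or digest what surrounds them. Mrc1 encodes the mannose receptor, which internalises glycoproteins, and Dab2 encodes an adaptor that links receptors of the LDL receptor family to clathrin. Mertk encodes a receptor tyrosine kinase that recognises apoptotic cells through bridging proteins. C1qa, C1qb and C1qc encode the 3 chains of C1q, the recognition component of the classical complement pathway, and macrophages are a main source of it. Apoe encodes the lipid carrier apolipoprotein E, and Lpl encodes lipoprotein lipase, which releases fatty acids from triglycerides. Fn1 encodes the matrix protein fibronectin, and Mmp14 encodes a membrane-bound metalloproteinase that cleaves collagen and activates other proteases. Basophils carry the high-affinity IgE receptor and are not known for these genes. Tristetraprolin binds AU-rich stretches in the 3′ untranslated regions (UTRs) of messenger RNAs.

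The heptamer TATTTAT, the DNA form of the core that tristetraprolin binds, was searched on the sense strand of the longest annotated 3′ UTR of each gene (GENCODE M21, GRCm38). It was present in 4 of the 10 genes, Mrc1, Fn1, Mertk and Lpl, and in 30.3% of the 11220 tested genes with a 3′ UTR. Each match is shown because tristetraprolin, the protein named in the genotype labels, binds in this part of transcripts. The windows of 30 bases around each match run 5′ to 3′, with the heptamer in capitals. They are on chromosome 2 for Mrc1 and Mertk, chromosome 1 for Fn1 and chromosome 8 for Lpl, and the number is the distance of the heptamer from the stop codon in bases.
Mrc1, 512: attgagaactgTATTTATccacatgtagaa
Mrc1, 694: ataaataatgcTATTTATtatctaattaat
Fn1, 515: tacctgtttgtTATTTATcaatttttccca
Mertk, 1142: aatacataataTATTTATttaaagagagaa
Lpl, 1740: taatgaagaatTATTTATgaacgagatctc
Lpl, 2176: agctttcaattTATTTATtagctgtaaata
A match is a description of letters, not of binding. Among tested genes whose 3′ UTR was within 20% of the same length, 21.6% held the heptamer for Mrc1 (882 bases), 19.7% for Fn1 (692 bases), 28.9% for Mertk (1227 bases) and 43.9% for Lpl (2428 bases). The heptamer was absent from the 3′ UTRs of Dab2 (1936 bases), Mmp14 (1328 bases), Apoe (271 bases), C1qa (237 bases), C1qb (160 bases) and C1qc (239 bases). The shares at like length were 39% for Dab2 and 30.8% for Mmp14. They were 8.85% for Apoe, 7.21% for C1qa, 6.28% for C1qb and 7.88% for C1qc. All 4 genes with the heptamer are among the 6 that rose over control at 4 h of TNP-OVA, described below. The other 2 of those, Dab2 and Mmp14, have none, and neither do Apoe and the C1q genes, which did not rise. Apoe and the C1q genes have the shortest 3′ UTRs of the 10, so the split cannot be told apart from length.

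Library totals ran from 5516600 to 12733000 estimated counts, and within each condition the totals of TTP-KO and WT libraries overlapped. Estimated counts of the 10 genes in single libraries lay between 111 for Mertk and 39649 for Apoe. Levels are in counts per 1e6 (CPM) after TMM scaling (trimmed mean of M values), which are not divided by transcript length, so levels of different genes are not compared. Errors are SDs beside CPM (n = 3 libraries per group) and standard errors beside log2 fold changes. No label states that replicates are separate animals or cultures, and p-values therefore measure only the spread between libraries, which may be technical. Zfp36, the gene that encodes tristetraprolin, stood at 224 ± 4.46 CPM in TTP-KO and 237 ± 11.4 CPM in WT control cells, at 564 ± 9.92 and 448 ± 10.6 CPM in TTP-KO and WT cells at 2 h, and at 324 ± 23.9 and 295 ± 22.7 CPM in TTP-KO and WT cells at 4 h. Its log2 difference in control cells was -0.08 ± 0.05 (edgeR adjusted p = 0.601), and at 2 h it was higher in libraries labelled TTP-KO by 0.33 ± 0.05 (adjusted p = 0.000316). The altered part of Zfp36 is not described in the labels, so its RNA level checks nothing about them, and all directions rest on the labels.

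The cultures held both basophil and macrophage transcripts. Levels were summed over 14 basophil markers, including the protease genes Mcpt8 and Prss34. In control cells the sums ran from 26618 to 28112 CPM in TTP-KO and from 25909.5 to 27225 CPM in WT libraries. At 2 h they ran from 35958 to 36450 CPM in TTP-KO and from 35150 to 36061 CPM in WT libraries. The genotypes overlapped in both of these conditions. At 4 h the sums ran from 26287 to 26866 CPM in TTP-KO and from 26900.2 to 28545.5 CPM in WT libraries. The macrophage markers Csf1r, the receptor for colony stimulating factor 1 (mean of all 18 libraries 264 CPM), Cd68 (261 CPM), Cd14 (246 CPM) and Adgre1, which encodes F4/80 (112 CPM), were detected in every library. Of the 26 genes of the macrophage identity list, some markers of tissue-resident macrophages were at or near zero: Cd163 had no count in 3 libraries, Vsig4 and Timd4 in 13 each, Lyve1 in 12 and Cd209f in 17. Others had counts in every library at means of 14.7 CPM for Stab1, 2.58 CPM for Cd5l, 1.88 CPM for Marco, 1.82 CPM for Spic, 1.81 CPM for Siglec1 and 1.06 CPM for Folr2. In bulk RNA, more macrophages in a culture and more RNA of these genes per cell cannot be told apart.

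The 10 genes were all higher in TTP-KO than in WT libraries at 4 h of TNP-OVA, but not in the other conditions. At 4 h every TTP-KO library lay above every WT library for 10 of the 10 genes. Of all genes tested, 12.3% had TTP-KO above WT without overlap at 4 h and 12.8% had it below. The median log2 difference was 0.41 for the 10 genes and 0.01 for all genes tested. After 2 h of TNP-OVA 6 of the 10 genes lay above without overlap, 2 below and 2 overlapped (all genes 8.26% above and 10.3% below; medians 0.28 for the 10 genes and 0.00 for all genes). After control OVA 6 lay above, 3 below and 1 overlapped (all genes 8.43% above and 9.06% below; medians 0.16 and -0.00). The 3 genes that were lower in TTP-KO control cells were Fn1, Dab2 and Lpl, so the description as higher in TTP-KO holds for them at 4 h only. Because the genes were chosen on this difference, nothing is read from these counts.

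**Figure D1:**
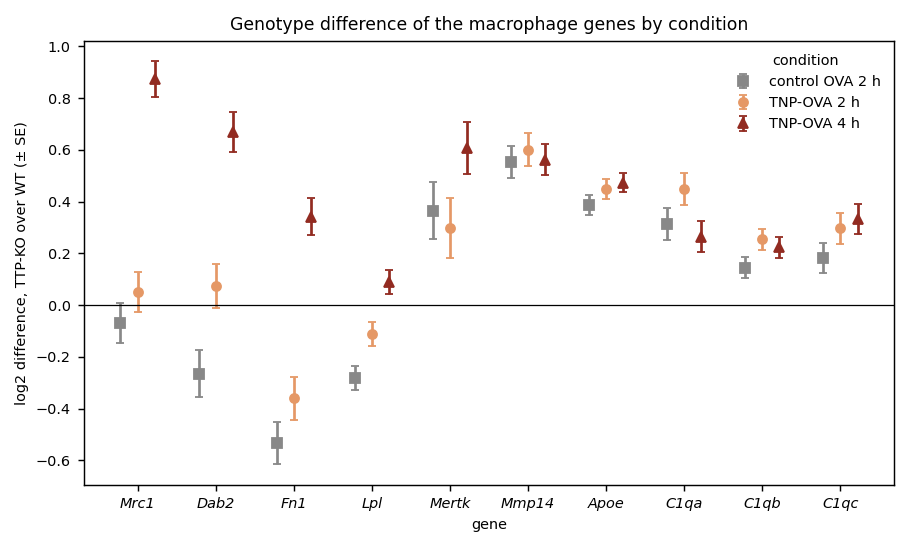
Log2 difference of TTP-KO over WT for each of the 10 macrophage genes, with standard errors, in the 3 conditions (squares, control OVA 2 h; circles, TNP-OVA 2 h; triangles, TNP-OVA 4 h; 3 libraries per group). Mrc1, Dab2, Fn1 and Lpl lie at or below 0 in control cells and above 0 at 4 h, up to 0.87 for Mrc1, while Mertk, Mmp14, Apoe and the C1q genes lie above 0 in all 3 conditions.

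After 4 h of TNP-OVA 6 of the 10 genes stood above their control OVA level in both genotypes. Relative to control OVA, 6 genes rose and none fell in TTP-KO cells, where 18.3% of genes tested rose and 16.7% fell (edgeR, adjusted p under 0.05). In WT cells the same 6 genes rose and 2 fell, where 19.6% of genes tested rose and 18.4% fell. The 6 that rose were Dab2, Mrc1, Fn1, Lpl, Mertk and Mmp14, and the 2 that fell in WT cells were C1qb and C1qc. In TTP-KO cells C1qa and C1qc passed as lower only under other settings, given below. At 2 h 3 genes rose in TTP-KO cells and 2 in WT cells, with none lower (all genes tested 17.8% higher and 16.6% lower in TTP-KO cells, 17.8% higher and 17.3% lower in WT cells). Between 2 h and 4 h 6 rose and 1 fell in TTP-KO cells (all genes 14.6% higher and 16.2% lower), and 6 rose and 1 fell in WT cells (all genes 15.2% higher and 15.9% lower). The comparisons within a genotype were not used to choose the genes, but they share libraries with the genotype comparisons that were, in particular the TTP-KO libraries at 4 h. The control was taken at 2 h, so antigen and the 2 h longer treatment cannot be told apart in the 4 h comparison.

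**Figure D2:**
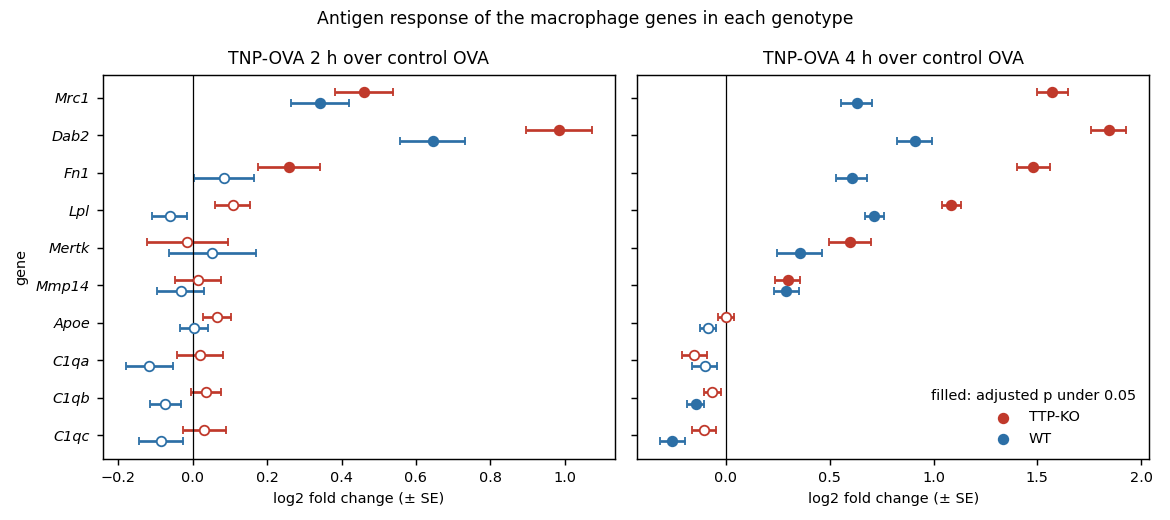
Log2 fold change of TNP-OVA over control OVA with standard errors, at 2 h (left) and 4 h (right), in TTP-KO and WT cells (3 libraries per group; filled points have an edgeR adjusted p under 0.05). At 4 h Mrc1, Dab2 and Fn1 lie between 1.48 and 1.84 in TTP-KO cells and between 0.61 and 0.91 in WT cells, while Mmp14 lies at 0.30 and 0.29.

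Mrc1, the mannose receptor gene (ENSMUSG00000026712), rose with antigen in both genotypes and reached its highest level in TTP-KO cells at 4 h. In control cells its level was 45.3, 40.7 and 42.2 CPM in TTP-KO libraries and 44.1, 44.8 and 45.1 CPM in WT libraries. After 2 h of antigen it was 53.9, 61.6 and 60.4 CPM in TTP-KO and 52.8, 61.4 and 55.4 CPM in WT libraries. At 4 h it was 119, 123 and 138 CPM in TTP-KO and 66.3, 70.2 and 70.9 CPM in WT libraries. The genotypes overlapped in control cells and at 2 h, and at 4 h the lowest TTP-KO library was far above the highest WT library. The log2 difference of TTP-KO over WT was -0.07 ± 0.08, 0.05 ± 0.08 and 0.87 ± 0.07 in control cells, at 2 h and at 4 h. In TTP-KO cells Mrc1 rose over control by a log2 fold change of 0.46 ± 0.08 at 2 h (edgeR adjusted p = 2.10e-05) and 1.57 ± 0.07 at 4 h (adjusted p = 4.00e-16). In WT cells it rose by 0.34 ± 0.08 at 2 h (edgeR adjusted p = 0.000839) and 0.63 ± 0.07 at 4 h (adjusted p = 7.19e-08). Between 2 h and 4 h alone it rose by 1.11 ± 0.07 in TTP-KO and 0.29 ± 0.07 in WT cells (edgeR adjusted p = 7.96e-13 and 0.00334).

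Dab2, the clathrin adaptor gene (ENSMUSG00000022150), had the largest rise over control OVA of the 10 genes in both genotypes. At 4 h Dab2 rose 3.59-fold in TTP-KO and 1.88-fold in WT cells. Its control level was 24.2, 21.9 and 25.2 CPM in TTP-KO libraries and 29.0, 27.7 and 28.8 CPM in WT libraries. At 2 h it was 46.9, 45.3 and 49.0 CPM in TTP-KO and 43.6, 48.5 and 41.9 CPM in WT libraries, and at 4 h 85.5, 83.3 and 87.1 CPM in TTP-KO and 55.9, 57.2 and 47.5 CPM in WT libraries. The TTP-KO libraries thus lay below WT in control cells, among WT at 2 h and above WT at 4 h. The log2 difference of TTP-KO over WT was -0.26 ± 0.09, 0.07 ± 0.08 and 0.67 ± 0.08 in that order. Dab2 rose in TTP-KO cells by 0.98 ± 0.09 at 2 h and 1.84 ± 0.08 at 4 h (edgeR adjusted p = 3.17e-10 and 2.52e-16), and in WT cells by 0.64 ± 0.09 and 0.91 ± 0.08 (adjusted p = 7.03e-07 and 6.23e-10). Between 2 h and 4 h it rose by 0.86 ± 0.08 in TTP-KO cells (edgeR adjusted p = 1.24e-09) and by 0.26 ± 0.08 in WT cells (adjusted p = 0.0136). The WT call over that interval was lost when any 1 of 4 single libraries was left out, replicates 1 and 3 of WT at 2 h and replicates 1 and 2 of WT at 4 h, where the value lay between 0.20 and 0.23.

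Fn1, the fibronectin gene (ENSMUSG00000026193), changed sides between genotypes. It stood at 31.8, 31.6 and 34.8 CPM in TTP-KO and 50.4, 45.8 and 46.2 CPM in WT control libraries. After 2 h it stood at 40.0, 38.8 and 38.9 CPM in TTP-KO and 54.0, 45.2 and 52.2 CPM in WT libraries, and at 4 h at 93.9, 95.4 and 85.8 CPM in TTP-KO and 73.1, 67.6 and 76.6 CPM in WT libraries. Every TTP-KO library was below every WT library in control cells and at 2 h, and above at 4 h. The log2 difference of TTP-KO over WT was -0.53 ± 0.08, -0.36 ± 0.08 and 0.34 ± 0.07. In TTP-KO cells Fn1 rose by 0.26 ± 0.08 at 2 h (edgeR adjusted p = 0.0169), a call lost without replicate 1 or 2 of the TTP-KO control group or replicate 1 of TTP-KO at 2 h (values of 0.22 to 0.24), and by 1.48 ± 0.08 at 4 h (adjusted p = 5.97e-15). In WT cells its log2 fold change was 0.08 ± 0.08 at 2 h (edgeR adjusted p = 0.461), and it rose by 0.61 ± 0.08 at 4 h (adjusted p = 1.87e-07).

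Lpl, the lipoprotein lipase gene (ENSMUSG00000015568), followed the same order at higher counts and with smaller differences. Its level was 433, 431 and 412 CPM in TTP-KO and 569, 504 and 477 CPM in WT control libraries. With 2 h of TNP-OVA it was 467, 455 and 452 CPM in TTP-KO and 497, 506 and 482 CPM in WT libraries, and at 4 h 925, 888 and 893 CPM in TTP-KO and 831, 848 and 866 CPM in WT libraries. The genotypes did not overlap in any condition, with TTP-KO below WT in the first 2 conditions and above at 4 h, where the mean difference was 1.06-fold. The log2 difference of TTP-KO over WT was -0.28 ± 0.05, -0.11 ± 0.05 and 0.09 ± 0.05. Lpl rose at 4 h by 1.09 ± 0.05 in TTP-KO cells (edgeR adjusted p = 6.84e-17) and by 0.71 ± 0.05 in WT cells (adjusted p = 4.39e-13). At 2 h its log2 fold change was 0.11 ± 0.05 in TTP-KO and -0.06 ± 0.05 in WT cells (edgeR adjusted p = 0.0790 and 0.334). The value in TTP-KO cells passed with relative log expression (RLE) scaling, with DESeq2 and with only the libraries compared (adjusted p = 0.0383, 0.0490 and 0.0236).

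The differences in response, TTP-KO minus WT, were largest for the same 4 genes at 4 h. They were 0.94 ± 0.10 for Mrc1, 0.93 ± 0.12 for Dab2, 0.88 ± 0.11 for Fn1 and 0.37 ± 0.07 for Lpl on the log2 scale. At 2 h they were 0.12 ± 0.11 for Mrc1, 0.34 ± 0.12 for Dab2, 0.17 ± 0.12 for Fn1 and 0.17 ± 0.07 for Lpl. The difference at 4 h over control was 0.24 ± 0.15 for Mertk, 0.15 ± 0.08 for C1qc, 0.09 ± 0.05 for Apoe, 0.08 ± 0.06 for C1qb, 0.01 ± 0.09 for Mmp14 and -0.05 ± 0.09 for C1qa. These values are descriptions, since the genotype difference at 4 h is part of them.

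**Figure D3:**
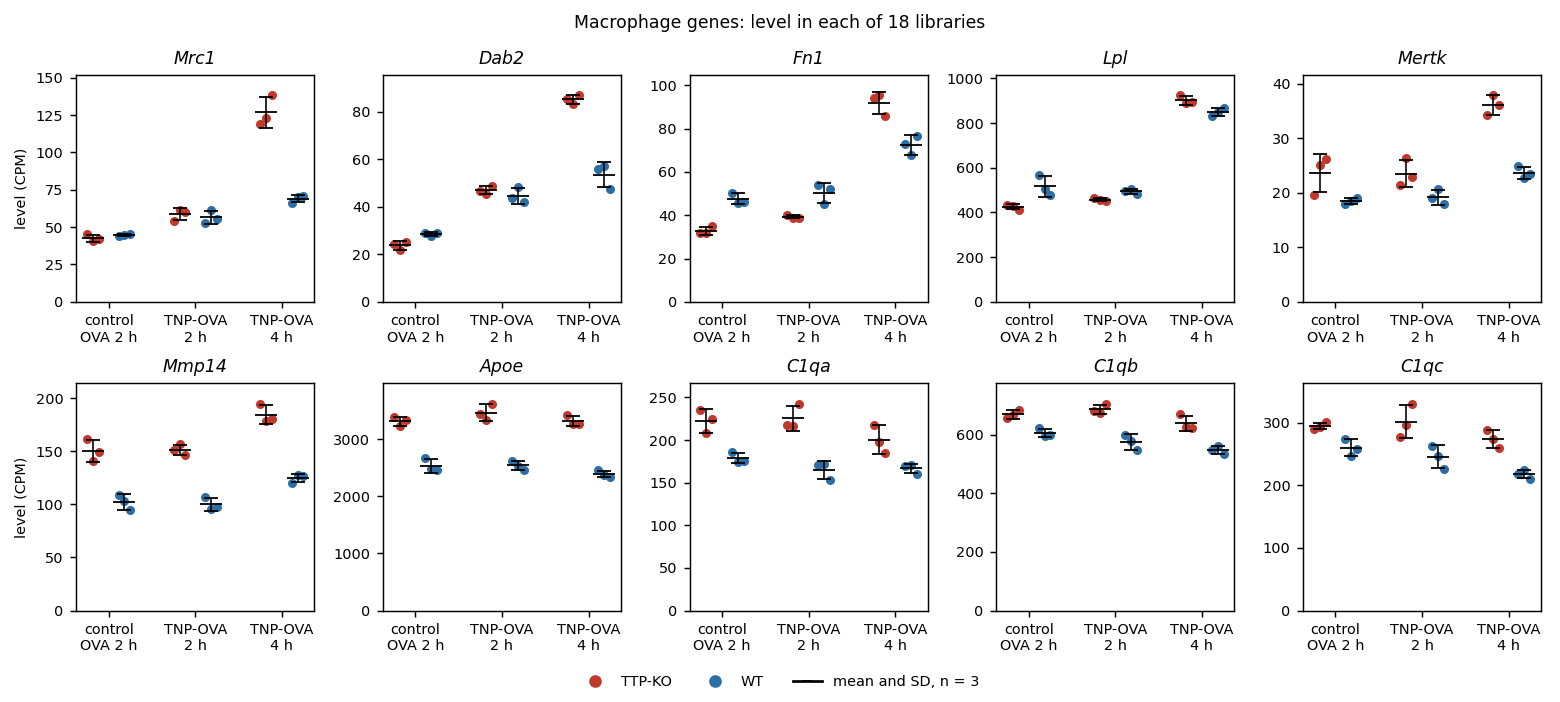
Level of each macrophage gene in CPM (linear axes from 0) in every library, TTP-KO left of WT in each condition, with horizontal lines for the mean and bars for the SD (3 libraries per group). Mrc1, Dab2, Fn1 and Lpl climb in both genotypes, Mrc1 to 127 CPM in TTP-KO against 69.1 CPM in WT cells at 4 h, while Apoe and the C1q genes do not climb and have TTP-KO above WT throughout.

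Mertk and Mmp14 were higher in TTP-KO libraries in every condition and also rose over control OVA at 4 h of TNP-OVA. Neither passed the test at 2 h over control, the comparison matched in time. Mertk, the receptor for apoptotic cells (ENSMUSG00000014361), had 19.6, 25.1 and 26.1 CPM in TTP-KO and 17.9, 18.4 and 19.0 CPM in WT control libraries. At 2 h it had 21.4, 26.3 and 22.9 CPM in TTP-KO and 19.0, 20.6 and 17.9 CPM in WT libraries, and at 4 h 34.3, 37.9 and 36.1 CPM in TTP-KO and 24.8, 22.6 and 23.5 CPM in WT libraries. The nearest libraries of the genotypes almost touched in control cells and at 2 h and lay well apart at 4 h, with log2 differences of TTP-KO over WT of 0.36 ± 0.11, 0.30 ± 0.11 and 0.61 ± 0.10. Mertk rose at 4 h by 0.60 ± 0.10 in TTP-KO cells (edgeR adjusted p = 2.75e-05) and by 0.36 ± 0.11 in WT cells (adjusted p = 0.00988). At 2 h its log2 fold change was -0.01 ± 0.11 in TTP-KO and 0.05 ± 0.12 in WT cells (edgeR adjusted p = 0.942 and 0.775). From 2 h to 4 h it rose by 0.61 ± 0.10 in TTP-KO cells (edgeR adjusted p = 3.96e-05). In WT cells the change over that interval was 0.30 ± 0.11 (edgeR adjusted p = 0.0363), a call lost under RLE scaling, with DESeq2 and without any 1 of the 6 libraries (values of 0.23 to 0.33).

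Mmp14, the membrane-bound metalloproteinase gene (ENSMUSG00000000957), kept nearly the same genotype difference throughout. In control cells it had 161, 140.4 and 149 CPM in TTP-KO and 109, 103 and 94.3 CPM in WT libraries. After 2 h it had 151, 156 and 147 CPM in TTP-KO and 107, 95.9 and 97.3 CPM in WT libraries, and at 4 h 194, 178 and 180.4 CPM in TTP-KO and 120.5, 128 and 127 CPM in WT libraries. No TTP-KO library in any condition was as low as the highest WT library of any condition, and the log2 difference of TTP-KO over WT was 0.55 ± 0.06, 0.60 ± 0.06 and 0.56 ± 0.06. Mmp14 rose at 4 h by 0.30 ± 0.06 in TTP-KO and 0.29 ± 0.06 in WT cells (edgeR adjusted p = 0.000209 and 0.000343). At 2 h its log2 fold change was 0.01 in TTP-KO and -0.03 in WT cells (edgeR adjusted p = 0.889 and 0.751).

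Apoe, the apolipoprotein E gene (ENSMUSG00000002985), had the highest counts of the 10 genes and moved little with antigen. Its level was 3387, 3227 and 3335 CPM in TTP-KO and 2670, 2471 and 2463 CPM in WT control libraries. With 2 h of TNP-OVA it was 3448, 3340 and 3619 CPM in TTP-KO and 2627, 2537 and 2460 CPM in WT libraries, and at 4 h 3421, 3273 and 3261 CPM in TTP-KO and 2457, 2369 and 2344 CPM in WT libraries. The lowest of the 9 TTP-KO libraries lay above the highest of the 9 WT libraries, and the log2 difference of TTP-KO over WT was 0.39 ± 0.04, 0.45 ± 0.04 and 0.47 ± 0.04. At 4 h over control its log2 fold change was 0.00 ± 0.04 in TTP-KO cells (edgeR adjusted p = 0.992) and -0.08 ± 0.04 in WT cells (adjusted p = 0.0750, and 0.0455 with replicate number as a block). In WT cells its change from 2 h to 4 h was -0.09 ± 0.04 (edgeR adjusted p = 0.0732). That fall passed with RLE scaling, DESeq2 and the block (adjusted p = 0.0226, 0.0242 and 0.0428). It also passed without replicate 2 or 3 of WT at 2 h (edgeR adjusted p = 0.0464 and 0.0164).

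The 3 C1q genes also stood higher in TTP-KO libraries in each condition, with log2 differences between 0.14 and 0.45. C1qb (ENSMUSG00000036905) had 657, 666 and 685 CPM in TTP-KO and 622, 596 and 599 CPM in WT control libraries. At 4 h it had 669, 626 and 624 CPM in TTP-KO and 547, 563 and 533 CPM in WT libraries. The genotypes lay closest in control cells, and log2 differences of TTP-KO over WT were 0.14 ± 0.04, 0.25 ± 0.04 and 0.22 ± 0.04 in control cells, at 2 h and at 4 h. C1qa (ENSMUSG00000036887) averaged 223 ± 14.0 CPM in TTP-KO and 179 ± 6.27 CPM in WT control cells, 226 ± 14.5 and 165 ± 10.8 CPM in TTP-KO and WT cells at 2 h, and 200.3 ± 16.8 and 167 ± 5.61 CPM in TTP-KO and WT cells at 4 h. Its log2 differences were 0.31 ± 0.06, 0.45 ± 0.06 and 0.27 ± 0.06. C1qc (ENSMUSG00000036896) averaged 295 ± 5.495 CPM in TTP-KO and 259.7 ± 13.8 CPM in WT control cells, 301 ± 26.5 and 245 ± 18.4 CPM in TTP-KO and WT cells at 2 h, and 274 ± 14.1 and 217 ± 6.64 CPM in TTP-KO and WT cells at 4 h, with log2 differences of 0.18 ± 0.06, 0.30 ± 0.06 and 0.33 ± 0.06. The groups did not overlap for any of the 3 genes in any condition.

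After TNP-OVA the C1q genes drifted down or did not pass the test. At 4 h over control in WT cells C1qc fell by a log2 fold change of -0.26 ± 0.06 (edgeR adjusted p = 0.000859) and C1qb by -0.14 ± 0.04 (adjusted p = 0.00527, a call lost with no filter on low counts). C1qa stood at -0.10 ± 0.06 (edgeR adjusted p = 0.205). In TTP-KO cells the values were -0.11 ± 0.06 for C1qc, -0.06 ± 0.04 for C1qb and -0.15 ± 0.06 for C1qa (edgeR adjusted p = 0.168, 0.230 and 0.0546). The C1qa fall passed with replicate number as a block and with only the libraries compared (edgeR adjusted p = 0.0441 and 0.0421). It also passed when control replicate 2 or 4 h replicate 1 was dropped (edgeR adjusted p = 0.0228 and 0.0106). The C1qc fall passed with only the libraries compared (edgeR adjusted p = 0.0412). From 2 h to 4 h C1qa changed by -0.17 ± 0.06 in TTP-KO and C1qc by -0.17 ± 0.06 in WT cells (edgeR adjusted p = 0.0353 and 0.0263), and both calls were lost with no filter. The C1qa call was also lost without replicate 3 of TTP-KO at 2 h or replicate 2 or 3 of TTP-KO at 4 h (values of -0.16 to -0.11), and the C1qc call without replicate 1 of WT at 2 h or replicate 1 or 3 of WT at 4 h (values of -0.17 to -0.15). The chains are assembled in equal numbers in the C1q protein. The ratio of C1qb to C1qa estimated counts ran from 2.79 to 3.20 in TTP-KO and from 3.34 to 3.41 in WT control libraries, from 2.91 to 3.13 in TTP-KO and 3.38 to 3.59 in WT libraries at 2 h, and from 3.07 to 3.38 in TTP-KO and 3.23 to 3.33 in WT libraries at 4 h. The ratio of C1qc to C1qa ran from 1.23 to 1.41 in TTP-KO and 1.41 to 1.47 in WT control libraries, from 1.27 to 1.37 in TTP-KO and 1.43 to 1.54 in WT libraries at 2 h, and from 1.32 to 1.40 in TTP-KO and 1.29 to 1.31 in WT libraries at 4 h. The first ratio was apart between genotypes in control cells and at 2 h and overlapped at 4 h, whereas the second overlapped in control cells and was lower in TTP-KO at 2 h and higher at 4 h.

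Promoters are shown for C1qb and C1qc, neighbours on chromosome 4 whose levels varied together, and for Mrc1, which held the most matches to the motif searched. They run from 250 bases before to 50 after the start (RefSeq, GRCm38.p6), 5′ to 3′ on the gene's strand, with capitals on GAGGAA or its reverse complement TTCCTC, a core of sites bound by PU.1, a macrophage transcription factor, and by other ETS factors. Mrc1 is at chr2:14229164-14229463 on the plus strand, C1qb at chr4:136886151-136886450 and C1qc at chr4:136892865-136893164 on the minus strand.
Mrc1: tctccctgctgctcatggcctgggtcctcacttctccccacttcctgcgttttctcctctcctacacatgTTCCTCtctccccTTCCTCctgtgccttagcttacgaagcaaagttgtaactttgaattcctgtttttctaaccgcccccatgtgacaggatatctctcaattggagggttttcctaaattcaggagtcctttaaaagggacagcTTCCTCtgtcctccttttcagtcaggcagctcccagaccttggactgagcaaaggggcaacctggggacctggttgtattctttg
C1qb: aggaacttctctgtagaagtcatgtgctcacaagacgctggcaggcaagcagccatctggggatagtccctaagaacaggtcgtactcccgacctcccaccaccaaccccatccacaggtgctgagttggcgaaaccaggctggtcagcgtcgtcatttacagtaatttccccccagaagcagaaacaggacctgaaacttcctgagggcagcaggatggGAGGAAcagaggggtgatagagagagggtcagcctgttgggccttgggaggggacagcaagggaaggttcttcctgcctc
C1qc: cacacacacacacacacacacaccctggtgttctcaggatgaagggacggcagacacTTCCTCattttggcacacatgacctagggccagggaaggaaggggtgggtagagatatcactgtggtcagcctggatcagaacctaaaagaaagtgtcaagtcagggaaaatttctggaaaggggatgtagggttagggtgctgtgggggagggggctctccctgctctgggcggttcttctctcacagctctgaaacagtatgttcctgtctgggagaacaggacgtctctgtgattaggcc
Mrc1 held 3 matches, and 0.685% of the 32851 promoters of this length held 3 or more. Mrc1 was picked for holding the most, and that share does not allow for the choice. C1qb and C1qc held 1 match each. The table held 10 promoters for 7 of the 10 genes, 3 of them for Apoe, of which some overlap, and 2 for Dab2. Of these 10 promoters 7 had GAGGAA on either strand, against 28.3% of all promoters and 27.1% of those of tested genes. Promoters of the same gene are not independent, so nothing is read from that count. Both Dab2 promoters had 1 match, those of Apoe had 2, 1 and 0, and those of Mertk and Mmp14 had 0, so the matches did not separate genes that rose from genes that did not. TGCTGAC, a short motif bound by Maf proteins, was in none of the 10 on either strand and in 4.67% of all promoters. Fn1, C1qa and Lpl were not matched.

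Across the 18 libraries the genes fell into sets that varied together. C1qb and C1qc had a Pearson correlation of log2 CPM of 0.967, Fn1 and Lpl of 0.952, C1qa and C1qb of 0.944, Mrc1 and Dab2 of 0.941, and Apoe and C1qb of 0.923. The lowest were C1qc with Lpl at -0.493 and C1qc with Fn1 at -0.488. These libraries share their groups, so the values describe the pattern of 6 group means as much as single libraries. The correlation of each gene with the mean of the other 9 ran from 0.294 for Fn1 to 0.898 for Mmp14. The genes outside the 10 whose levels were most like the mean of the 10 over the 18 libraries were Ms4a7 (0.897), Ms4a4a (0.874), Chchd1 (0.871), Maf (0.858), Ifi27 (0.847), Tnfaip8l3 (0.845), Ms4a6d (0.842), Dst (0.825) and Agap1 (0.819). The next was a gene known by a clone name.

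Other genes of macrophage identity had a median log2 difference of 0.18 at 4 h, TTP-KO over WT. Of 26 genes listed 21 were tested, and at 4 h 7 were higher in TTP-KO cells and none lower by edgeR's test at an adjusted p under 0.05, where 1.83% of all genes tested were higher and 3.40% lower. The count was 4 higher without replicate 2 of WT at 4 h and 4 without replicate 3 of WT. Of the 7, Cd68 lost its call in 6 of 11 alternatives, 5 of them with 1 library left out. Gpnmb lost its call in 5 of 11, 4 of them with 1 library left out. Maf, which encodes a transcription factor of macrophages, stood at 19.4 ± 0.570 CPM in TTP-KO and 12.0 ± 1.37 CPM in WT cells. Its log2 difference was 0.68 ± 0.14 (edgeR adjusted p = 0.00171). Ms4a7, a membrane protein gene of macrophages, was higher by 0.41 ± 0.08 (edgeR adjusted p = 0.00314), and Aif1, which encodes the actin-binding protein Iba1, by 0.51 ± 0.13 (adjusted p = 0.0116, lost without replicate 3 of TTP-KO or replicate 2 of WT, with adjusted p up to 0.123). Csf1r stood at 0.12 ± 0.05 and Adgre1 at -0.01 ± 0.06 (edgeR adjusted p = 0.139 and 0.972; both named after their values were seen). In control cells 2 of the 21 were higher and 2 lower (all genes 0.412% and 1.24%), and at 2 h 4 were higher and none lower (all genes 0.909% and 1.88%). These counts were lower with single libraries left out: in control cells no gene of the list passed without replicate 3 of TTP-KO, 1 higher without replicate 2 of either genotype, and 1 higher and 1 lower without replicate 3 of WT. At 2 h 2 were higher without replicate 1 of TTP-KO or replicate 3 of WT. The summed level of the macrophage identity list ran from 4714 to 4825 CPM in TTP-KO and 4703 to 4889.6 CPM in WT control libraries, and from 4695 to 5054 CPM in TTP-KO and 4484 to 4624 CPM in WT libraries at 4 h. The sum of the 10 genes ran from 5084 to 5285 CPM in TTP-KO and 4207 to 4572 CPM in WT control libraries, and from 5749.8 to 6048 CPM in TTP-KO and 4460.1 to 4563 CPM in WT libraries at 4 h. The sum of the 10 genes is mostly Apoe, and its genotype difference is part of how they were chosen.

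Lists built around the roles of the 10 genes moved in part at 4 h. Of 27 tested genes of lipoprotein and lipid handling 5 were higher in TTP-KO cells and 2 lower, and without replicate 1 of TTP-KO 4 were higher and none lower. Fabp4, a fatty acid-binding protein gene, stood at 89.9 ± 2.24 CPM in TTP-KO and 60.6 ± 3.20 CPM in WT cells (log2 difference 0.57 ± 0.07, edgeR adjusted p = 4.06e-06). The cholesterol exporter Abca1 was higher by 0.45 ± 0.07 and Fabp5 by 0.43 ± 0.06 (edgeR adjusted p = 0.000140 and 0.000301). Lrp1, an endocytic receptor that binds apolipoprotein E, was higher by 0.45 ± 0.11 (edgeR adjusted p = 0.0135), a call lost without replicate 1 or 2 of either genotype (adjusted p up to 0.156). Of 22 genes of endocytic receptors and clathrin adaptors 4 were higher and none lower, including Clec7a, the beta-glucan receptor Dectin-1 (0.39 ± 0.04, edgeR adjusted p = 1.74e-07), and the clathrin adaptor Picalm (0.20 ± 0.04, adjusted p = 0.00386). The others were Lrp1 and the clathrin heavy chain gene Cltc, and without replicate 1 or 2 of WT or replicate 2 of TTP-KO the count was 2.

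Of 29 genes of matrix and matrix proteases 5 were higher in TTP-KO cells at 4 h and 1 lower. Mmp9, a gelatinase, was higher by 0.53 ± 0.11 and Plau, urokinase, by 0.49 ± 0.09 (edgeR adjusted p = 0.00186 and 0.000771), while Furin, the protease that activates Mmp14, was lower by -0.47 ± 0.07 (adjusted p = 0.000579). Of 15 other complement genes 2 were higher and 2 lower, among those higher Cd93, a C-type lectin receptor gene, at 359 ± 3.96 CPM in TTP-KO and 280.2 ± 9.10 CPM in WT cells (0.36 ± 0.05, edgeR adjusted p = 3.97e-05). C5ar1, the receptor for C5a, was lower by -0.33 ± 0.06 (edgeR adjusted p = 0.000361). Of 21 genes of apoptotic cell uptake 2 were higher and 1 lower, and 1 higher and none lower without replicate 2 of either genotype. Trem2, a lipid-sensing receptor, stood at 0.21 ± 0.05 (edgeR adjusted p = 0.00512, and adjusted p = 0.0515 without replicate 3 of WT). For 24 genes of macrophage transcription and growth factor control the count was 3 higher and 4 lower, and 3 higher and 1 lower without replicate 3 of WT.

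Genes of alternative activation, the macrophage state driven by Il4 and for which Mrc1 is a common marker, went both ways between genotypes. At 4 h 3 of 21 were higher in TTP-KO cells and 6 lower. Arg1, arginase 1, stood at 114 ± 10.7 CPM in TTP-KO and 73.2 ± 6.63 CPM in WT cells (0.64 ± 0.08, edgeR adjusted p = 2.71e-06). The chemokine gene Ccl22 stood at 4.58 ± 0.824 CPM in TTP-KO and 21.3 ± 1.29 CPM in WT cells (-2.20 ± 0.22, edgeR adjusted p = 7.52e-08), and Ccl24 was lower by -0.98 ± 0.14 (adjusted p = 5.73e-05). At 4 h of TNP-OVA over control, 16 of the 21 rose in TTP-KO cells and 17 in WT cells, and 1 fell in each. Of all genes tested 18.3% rose and 16.7% fell in TTP-KO cells, and 19.6% rose and 18.4% fell in WT cells. Bulk RNA does not show in which cells the genes of this list rose. Il4 itself stood at 1225 ± 66.0 CPM in TTP-KO and 785 ± 40.4 CPM in WT cells at 4 h (0.64 ± 0.07, edgeR adjusted p = 4.19e-05), and its log2 difference was 0.01 at 2 h and -0.00 in control cells. Whether Il4 had a part in the levels of the 10 genes was not tested.

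**Figure D4:**
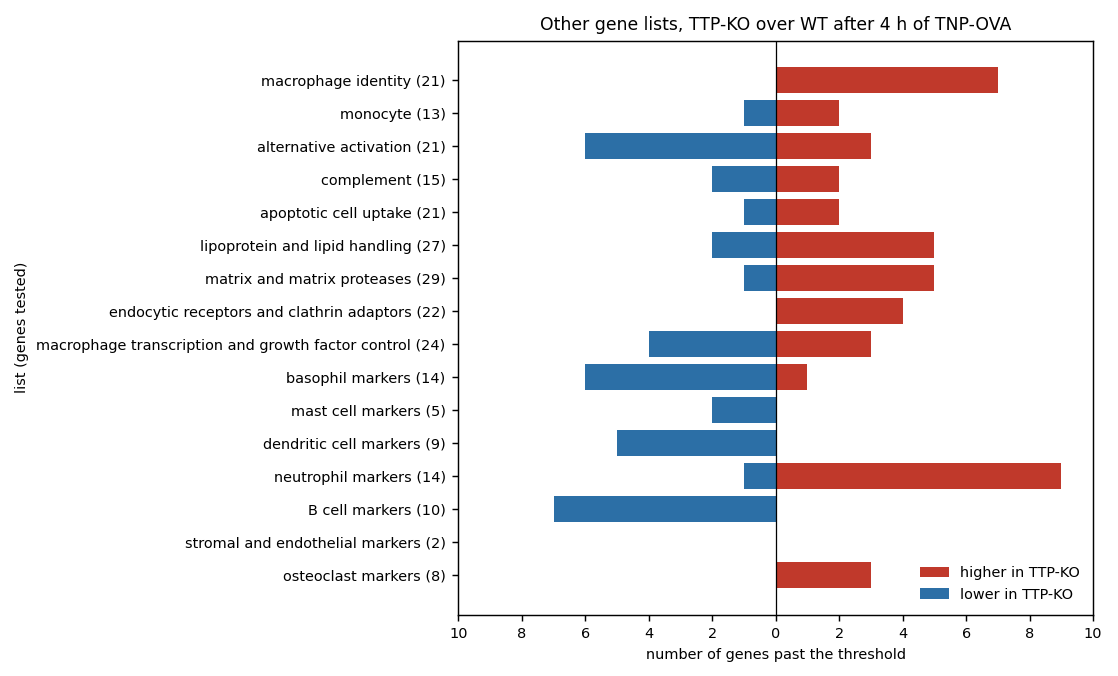
Number of genes of each list past the threshold (edgeR adjusted p under 0.05) in TTP-KO over WT cells after 4 h of TNP-OVA, with genes higher in TTP-KO to the right and lower to the left, and the number tested in parentheses; the 10 macrophage genes are in none of the lists. Macrophage identity has 7 higher and none lower, neutrophil markers 9 higher and 1 lower, and B cell markers 7 lower.

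Markers of other cell types differed between genotypes in the same libraries, and their part in the levels of the 10 genes was not tested. Of 14 neutrophil markers 5 were higher in TTP-KO control cells and none lower, and at 4 h 9 were higher and 1 lower, with S100a8, a calcium-binding protein gene of neutrophils, at 369 ± 29.6 CPM in TTP-KO and 165 ± 12.6 CPM in WT cells (edgeR adjusted p = 0.000887). Their summed level ran from 2565 to 2864 CPM in TTP-KO and 1724 to 1838 CPM in WT libraries at 4 h. Of 9 dendritic cell markers 5 were lower in TTP-KO cells in every condition, led at 4 h by the class II gene H2-Eb1 (-0.75 ± 0.05, edgeR adjusted p = 1.06e-11). Their sum at 4 h was 2589 to 2740.2 CPM in TTP-KO and 4101 to 4251 CPM in WT libraries. Most of it was Cd74 (mean of all 18 libraries 2021 CPM) and the H2 genes. Clec9a, Zbtb46, Flt3, Xcr1 and Siglech averaged only 2.40, 1.59, 0.434, 0.179 and 0.163 CPM. The calls thus mostly describe class II and related genes, and a difference in dendritic cell number was not tested. Of 10 B cell markers 7 were lower at 4 h (4 without replicate 3 of TTP-KO or replicate 2 of WT), among them Cd79a (-1.01 ± 0.15, edgeR adjusted p = 6.07e-05), with a sum of 67.6 to 72.6 CPM in TTP-KO and 108 to 122 CPM in WT libraries. Of 13 monocyte markers 2 were higher and 1 lower at 4 h, with sums of 1224 to 1294 CPM in TTP-KO and 1195 to 1256 CPM in WT libraries that overlapped. Most of the monocyte sum was Spn, Itgam and Nr4a1 (means of all 18 libraries 527, 279 and 177 CPM). Whether monocyte number differed was not tested. Of 14 basophil markers 1, Il4, was higher at 4 h and 6 were lower, including Gata1, an erythroid and basophil transcription factor (-0.27 ± 0.06, edgeR adjusted p = 0.00376). The number lower was 3 without replicate 2 of TTP-KO and 2 without replicate 3 of WT. Of 5 mast cell markers tested 2 were lower, including the tryptase Tpsb2 (-0.81 ± 0.06, edgeR adjusted p = 1.46e-10), with sums of 442 to 475 CPM in TTP-KO and 492 to 551 CPM in WT libraries. Of 8 osteoclast markers 3 were higher and none lower at 4 h, with Acp5, an acid phosphatase of osteoclasts and macrophages, at 0.34 ± 0.06 (edgeR adjusted p = 0.000235). Their sums at 4 h were 519 to 551 CPM in TTP-KO and 445 to 474 CPM in WT libraries. In control cells 2 of them, Mmp9 and Acp5, were higher and 2 lower. Those lower were Dcstamp (-1.28 ± 0.24, edgeR adjusted p = 0.00252) and Ctsk (-0.95 ± 0.22, adjusted p = 0.0165, lost in 5 of 11 alternatives). Stromal and endothelial markers, a source of Fn1 and Mmp14 in marrow, summed to between 3.89 and 12.5 CPM in all 18 libraries, and only 2 of the 16 listed passed the filter.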

How the data were processed

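The deposited table holds expected counts per gene for 18 libraries of polyA RNA, as RSEM gives them, with no normalization by the authors. Per the submitters' processing notes, the build was GRCm39 and the tools included RSEM 1.3.1, STAR 2.7.10a, cutadapt 3.5, R 4.4.0 and R 4.4.1, with no role given for each; the annotation release and the strand setting are not given in the sources used here. Columns headed as unstimulated were taken as the control OVA libraries of the same genotype and number. Sequences come from GRCm38 annotations, a different build from that of the counts, and were matched by gene symbol.

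Estimated counts were rounded and fitted with edgeR 4.0.16 (R 4.3.3): filterByExpr on the 6 groups (14076 of 56413 genes, holding 99.8% of counts), TMM scaling, and 1 robust quasi-likelihood fit of all 18 libraries with a mean per group and 12 residual degrees of freedom (biological coefficient of variation 0.0905). Benjamini-Hochberg adjustment ran over every gene tested, and the threshold was 0.05. Standard errors are the size of a log2 fold change over the square root of its F statistic. Tests rest on this fit because exact permutation of 3 against 3 libraries cannot go below 0.1. Library totals of 5516600 to 12733000 counts set the precision.

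The genes, lists and alternatives were chosen with earlier results of these data known. Named outside the 10 are, for each list and genotype comparison, at most 4 genes past the threshold with the largest changes, the genes most alike in pattern, Zfp36 and Il4. Csf1r, Adgre1 and the other macrophage, monocyte, basophil and dendritic cell markers given with their detection or mean level fall outside this rule. So do Cd68 and Gpnmb where their lost calls at 4 h are given. All of these were chosen after their values were seen. Genes of several lists, such as Lrp1 and Maf, count in each. Some genes taken by this rule are not reported here. H2 genes share reads with near-identical copies, so their values are uncertain. Within groups no library copied another: over 18 pairs the chi-square per degree of freedom, on genes with at least 20 counts, was 3.01 to 7.28. The steps were tested on simulated data. The alternatives tried were DESeq2 1.42.0, relative log expression (RLE) scaling, no filter, only the libraries compared, a replicate block and leaving out each library.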

Additional observations from a re-analysis of the deposited data

Results flagged for a closer look

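Fn1, Dab2 and Lpl had genotype differences of opposite sign in different conditions, with every TTP-KO library on one side of every WT library each time. The log2 difference (TTP-KO over WT) of Fn1 was -0.53 in control cells, -0.36 after 2 h of TNP-OVA and 0.34 after 4 h. For Dab2 it was -0.26 in control cells and 0.67 at 4 h, and for Lpl -0.28 in control cells, -0.11 at 2 h and 0.09 at 4 h. The difference between conditions was not tested, because the genes were chosen on their genotype difference.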

How the results depend on the processing

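For the 10 genes each of the 330 genotype values under an alternative moved by less than 1 SD of the replicates. For the 180 of these that left out 1 library, this says nothing about stability. Leaving out 1 of 3 libraries can hardly move a group mean that far. Of 660 values of antigen response, 24 lost a call, 24 gained one and 27 changed sign, all of these without a call. Of 528 counts of list genes between genotypes 77 moved by over 1.5 times. At 4 h the count of monocyte genes was 5 with no filter, against 3, and that of apoptotic cell uptake 5 with no filter and 7 with only the libraries compared, against 3. The number of genes differing between genotypes in control cells was 232, 399 with no filter on low counts and 123 with only the libraries compared. That last choice gave 284 genes at 2 h and 1086 at 4 h, against 393 and 735, so it moved the counts in both directions. Leaving out 1 library gave 148 to 196 genes in control cells, lowest without replicate 3 of TTP-KO, and 232 to 376 at 2 h, lowest without replicate 3 of WT, against 393 in the full data. At 4 h it gave 500 to 559, against 735. Why the counts moved was not tested.

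Replicate numbers did not pair libraries: of 27 same-numbered pairs none had a correlation of deviations over 0.1 (-0.0814 to 0.0290), and 4 libraries matched best with their own number. With a replicate block 257, 399 and 746 genes differed between genotypes in control cells, at 2 h and at 4 h. The block added 3 calls among the 10 genes, Apoe in WT cells at 4 h over control (adjusted p = 0.0455) and over 2 h (adjusted p = 0.0428), and C1qa in TTP-KO cells at 4 h over control (adjusted p = 0.0441).

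Log2 fold changes that changed sign were near 0. With no filter Apoe in WT cells at 2 h stood at -0.018, C1qa in TTP-KO cells at 2 h at -0.0014 and Mmp14 in TTP-KO cells at 2 h at -0.0062. C1qa in WT cells from 2 h to 4 h stood at -0.0081 with RLE scaling and -0.0077 with DESeq2. Mertk in TTP-KO cells at 2 h stood at 0.0042 with RLE scaling, 0.0048 with DESeq2 and 0.00057 with only the libraries compared, and Apoe in TTP-KO cells at 4 h at -0.016 with only those. Without single libraries at 2 h over control in WT cells Apoe ran from -0.017 to 0.043, Lpl from -0.12 to 0.014 and Mmp14 from -0.091 to 0.019. In TTP-KO cells at 2 h Mertk ran from -0.13 to 0.059, C1qa from -0.041 to 0.052, C1qc from -0.044 to 0.083 and Mmp14 from -0.039 to 0.059. Apoe in TTP-KO cells at 4 h ran from -0.022 to 0.015, and C1qa in WT cells from 2 h to 4 h from -0.061 to 0.042. RLE scaling shifted the median of all genes by at most 0.0235.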
